A study of Mus musculus with 2 samples.

Results

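Among the HIRA peaks of the embryonic mouse heart, 1063 of 6624 (16.05%, 95% Wilson confidence interval 15.2 to 17.0%) held a GA dinucleotide repeat and are described here. A peak was counted when at least 4 consecutive GA units, an exact match of 8 bases that starts with G, lay wholly inside it on either strand of the mm10 sequence. On the opposite strand the same repeat reads as TC. The paper reports a larger share of peaks with a GAGA motif, by consensus sequence discovery rather than by this exact match. The choice used only the sequence under the peak. A peak with 4 units just passed this rule and a peak with 3 just missed it. The 115 peaks whose longest run was 4 units had a median width of 181 bases, and the 673 peaks whose longest run was 3 units had one of 188 bases. Other properties of these peaks lay farther apart. Intergenic were 40% of the first and 56.3% of the second, a CA run was in 22.6% and 14.7%, and the median share of 32-base words that occur more than once in the genome was 21.5% and 56.5%. The 76 members with a longest run of 5 units had values of 60.5%, 18.4% and 53.3%. In intergenic share and repeated words they were thus closer to the peaks with 3 units than to those with 4.

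The study looked for the places that HIRA occupies by ChIPseq in hearts of wild type CD1 embryos at E12.5. Both groups, the HIRA immunoprecipitation and its input chromatin, came from 30 pooled hearts, and each was 1 library, so no value here has a biological replicate. The list cannot tell the cell types of the heart apart. The peaks were called by the authors against the input, and the list holds positions with no height or score, so every peak counted once. The sequencing depth is unknown, and all intervals cover counting error only.

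HIRA is a chaperone for the variant histone H3.3, which it deposits into nucleosomes outside of replication together with UBN1, CABIN1 and ASF1A. In flies the GAGA factor, the product of Trithorax-like, binds GA repeats, and replacement by H3.3 at such sites involves HIRA. Long GA repeats are also simple sequence repeats, which are common in mouse introns and between genes and change in length by slippage during replication.

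The sequences that follow show what such a peak looks like. Each is read from mm10 (the assembly GRCm38.p6), 5′ to 3′ on the strand that carries the longest GA run, with runs of 4 or more GA units in capitals. The first lies upstream of Lsp1 and is the member closest to the troponin genes Tnni2 and Tnnt3. It is a 200 base part of a peak of 662 bases (chr7:142459520-142459719, plus strand).
Lsp1 upstream: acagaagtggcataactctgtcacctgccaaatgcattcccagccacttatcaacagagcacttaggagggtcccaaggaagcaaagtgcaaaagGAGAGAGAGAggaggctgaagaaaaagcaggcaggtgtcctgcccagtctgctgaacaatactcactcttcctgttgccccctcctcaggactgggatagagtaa
The peak holds 1 run of 5 units, in sequence where no other GA or CA run was counted.

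The next 2 are shown because they hold the longest runs of all members, 65 and 63 units. They lie in intron 15 of Nalcn, which encodes a sodium leak channel (chr14:123391330-123391609, plus strand), and in the first intron of the zinc finger gene Zfp710 (chr7:80026824-80027000, plus strand).
Nalcn intron: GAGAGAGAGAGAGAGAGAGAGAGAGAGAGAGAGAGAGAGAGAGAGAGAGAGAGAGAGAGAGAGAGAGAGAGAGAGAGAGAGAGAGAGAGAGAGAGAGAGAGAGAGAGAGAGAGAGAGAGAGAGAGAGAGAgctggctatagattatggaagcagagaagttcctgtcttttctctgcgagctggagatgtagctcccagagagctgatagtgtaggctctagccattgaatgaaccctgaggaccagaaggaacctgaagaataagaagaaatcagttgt
Zfp710 intron: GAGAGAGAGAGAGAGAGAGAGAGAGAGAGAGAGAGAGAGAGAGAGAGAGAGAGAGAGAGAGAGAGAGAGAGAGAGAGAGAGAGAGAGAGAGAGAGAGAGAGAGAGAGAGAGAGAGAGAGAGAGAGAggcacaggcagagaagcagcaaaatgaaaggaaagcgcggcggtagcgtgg
In both, the run begins at the first base of the peak and continues beyond it in the genome, to 82 and 83 units.

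The members nearest to a transcript start of a protein-coding gene lay at Gng11, a G protein gamma subunit (chr6:4003819-4004004, plus strand), and at the gene model Gm49510 (chr15:78899555-78899756, plus strand). The first of them also shows a CA run that passes directly into the GA run, as does the member upstream of the zinc finger gene Zfp607b (chr7:27689106-27689378, plus strand). A GA run directly beside a CA run on the same strand was found in 39 members.
Gng11 start: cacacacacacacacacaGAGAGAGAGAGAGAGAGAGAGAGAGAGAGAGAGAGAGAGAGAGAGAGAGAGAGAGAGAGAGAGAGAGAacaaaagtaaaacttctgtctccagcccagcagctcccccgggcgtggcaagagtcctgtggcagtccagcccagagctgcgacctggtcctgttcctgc
Gm49510 start: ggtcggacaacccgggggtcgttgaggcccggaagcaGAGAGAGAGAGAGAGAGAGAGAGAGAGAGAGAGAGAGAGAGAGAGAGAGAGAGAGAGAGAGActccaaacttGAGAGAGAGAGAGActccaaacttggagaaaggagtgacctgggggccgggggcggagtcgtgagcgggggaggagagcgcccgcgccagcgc
Zfp607b upstream: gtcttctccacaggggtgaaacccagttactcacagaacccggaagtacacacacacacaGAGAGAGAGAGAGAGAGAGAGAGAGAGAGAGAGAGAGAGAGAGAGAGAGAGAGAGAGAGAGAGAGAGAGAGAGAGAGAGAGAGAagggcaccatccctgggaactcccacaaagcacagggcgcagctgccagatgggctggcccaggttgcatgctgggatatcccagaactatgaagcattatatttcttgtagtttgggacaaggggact
At Gng11 the run of 34 units lay wholly inside the peak, and at Zfp607b the run of 42 units did so as well.

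The last 2 have only the minimum of 4 units, placed nearest to the middle of the peak. One lay in the gene model Gm43950, with Pdzrn3 as the closest protein-coding start (chr6:101040702-101040871, minus strand), and the other was intergenic, with Rarb, a retinoic acid receptor, as the closest start (chr14:17085284-17085449, minus strand).
Gm43950 peak: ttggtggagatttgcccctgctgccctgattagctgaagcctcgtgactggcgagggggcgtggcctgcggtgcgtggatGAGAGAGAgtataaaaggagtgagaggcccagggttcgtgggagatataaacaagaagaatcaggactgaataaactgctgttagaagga
Rarb side peak: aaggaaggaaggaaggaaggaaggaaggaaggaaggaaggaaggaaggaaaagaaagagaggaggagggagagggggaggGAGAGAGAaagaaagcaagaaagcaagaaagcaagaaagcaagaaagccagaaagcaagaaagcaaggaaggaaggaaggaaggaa
The first holds no other GA or CA run but is wholly soft-masked, the mark of repeats in the assembly, and in the second the run stands inside repeats of other purine-rich units.

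Most members held a long repeat. The longest run inside the peak had a median of 14 units (95% interval of the median 13 to 14), with quartiles of 8 and 21 and a maximum of 65. At least 10 units were found in 735 members (69.1%, interval 66.3 to 71.8%), at least 20 in 302 (28.4%, 25.8 to 31.2%), and at least 40 in 5. The minimum of 4 units was the longest run in 115 members (10.8%, 9.09 to 12.8%). Where the same run was followed beyond the peak, its median was 21 units (20 to 21) and its maximum 83. GA runs took up a median of 17.4% of the bases of the peak (16.4 to 18.5%).

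A single run was present in 767 members (72.2%, interval 69.4 to 74.8%), a pair of runs in 184, and 4 or more in 58. The GA strand was the plus strand alone in 548 members and the minus strand alone in 501. Runs on both strands were rare, in 14 members (1.32%, 0.786 to 2.20%). The run usually belonged to a longer stretch of purines. The purine tract around the longest run had a median length of 58 bases (56 to 61), and it reached 50 bases or more in 655 members (61.6%, 58.7 to 64.5%).

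The purine content of the flanks differed from that of GA runs outside peaks chiefly where the run was short. For runs of 4 to 9 units in the genome, the 50 bases on the 5′ side of the run had a median of 76% purines in the 250 members (95% interval 68 to 80%), against 64% in the 475019 runs of that length outside peaks. On the 3′ side the medians were 74% (66 to 76%) and 62%. For 10 to 19 units the medians of the 248 members were 62% on either side, against 60% and 64% outside peaks. For runs of 20 units or more, the 565 members had medians of 64% (62 to 66%) on the 5′ side and 58% (56 to 60%) on the 3′ side, against 60% and 58% outside peaks.

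Next, every GA run of the genome was set against the peak list, to ask how often a run of a given length lay in a peak. The 21 chromosomes held 599355 runs of 4 or more GA units, of which 1642 had at least 4 units inside a peak (0.274%, interval 0.261 to 0.288%). This share rose with the length of the run. It was 0.111% (0.0998 to 0.123%) for runs of 4 units, 0.522% (0.446 to 0.612%) for 10 to 14 units, 0.712% (0.623 to 0.814%) for 20 to 24 units and 1.09% (0.929 to 1.28%) for 30 to 39 units. Runs of 20 units or more exceeded runs of 4 to 5 units by 0.721 percentage points (interval 0.654 to 0.794). A longer run has more places at which at least 4 of its units lie in a peak, and this part of the rise was not separated. Even among runs of 40 units or more, 16 of 1071 lay in a peak (1.49%, 0.922 to 2.41%).

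The CA dinucleotide, which formed more runs in the genome than GA, served as a reference counted in the same way. Of 1128357 CA runs, 1447 lay in a peak (0.128%, interval 0.122 to 0.135%). At equal run length the GA share exceeded the CA share by 0.145 percentage points (Mantel-Haenszel difference over 10 length classes, interval 0.130 to 0.159). The gap was widest at 30 to 39 units, where 147 of 13481 GA runs and 7 of 3130 CA runs were in a peak (1.09% and 0.224%, a difference of 0.867 points, interval 0.415 to 1.18). For 40 units or more the intervals overlapped (1.49%, 0.922 to 2.41%, against 1.27%, 0.350 to 4.53%). For scale, of 14310435 windows of 185 bases that tile the genome, 3.28% held the GA repeat and 5.64% the CA repeat.

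**Figure D1:**
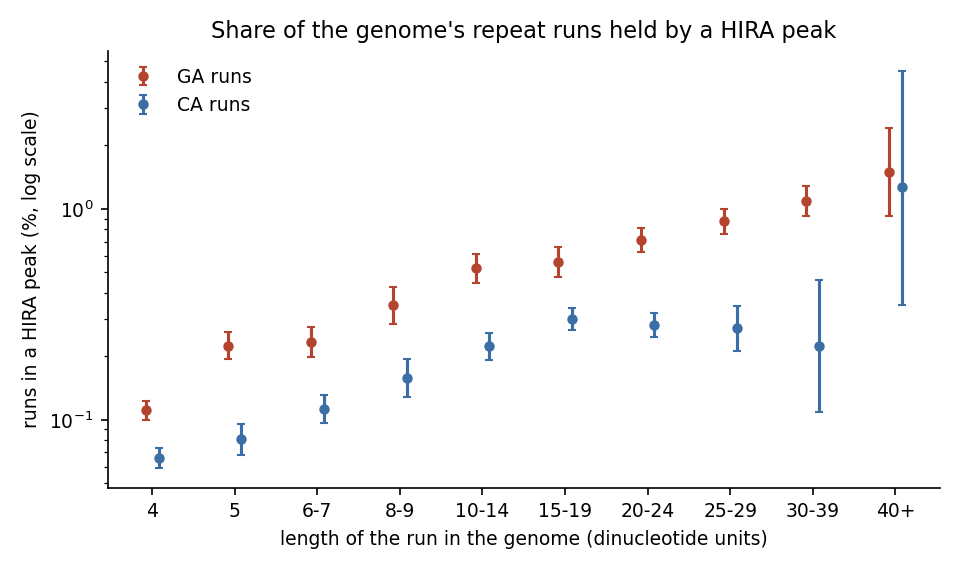
Share of all GA and CA runs of the genome that have at least 4 units inside a HIRA peak (y axis, percent on a log scale) against the length of the run in units (x axis). Points are shares and bars 95% Wilson intervals, and the GA share climbs from 0.111% at 4 units to 1.09% at 30 to 39 units while the CA share stays at or below 0.301% up to that length.

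The runs were not spread evenly along the peak. With the peak divided into 3 equal parts, the longest run was centred in the middle part in 148 of 1063 members (13.9%, interval 11.97 to 16.1%). If each run took every place with at least 4 units in its peak equally often, the share would be 29.8%. The low share belonged to the longer runs. For those of 10 units or more in the genome it was 8.61% (6.87 to 10.7%), against 28.5% with every place counted equally, and for those of 4 to 9 units it was 31.2% (25.8 to 37.2%), against 33.97%. The median distance from the longest run to the nearer edge of the peak was 1 base (interval 1 to 1). In 599 members (56.4%, 53.4 to 59.3%) the run continued past the edge, so the peak ended within the repeat. By units inside the peak, this held for 69.5% (66.1 to 72.7%) of the runs of 10 units or more and for 26.8% (22.3 to 31.9%) of the 328 shorter ones. The shorter ones include longer runs that the edge cut, since 250 members had 4 to 9 units in the genome.

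A run that is cut by the edge has its centre near that edge almost by construction, so the runs that lay wholly inside the peak were also looked at alone. Of these 464, 147 were centred in the middle part (31.7%, interval 27.6 to 36.0%), against 38.3% if every place wholly inside were taken equally often.

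Around the midpoints of all 6624 peaks the repeats formed a pair of summits. The share of bases inside a GA run was 4.44% at 100 bases to the left of the midpoint and 3.72% at 100 bases to its right, and it was 1.59 and 1.71% in the 40 base bins beside the midpoint. The genome held 0.365%. At 260 bases to either side it was 0.409 and 0.367%. CA runs had the same outline, with 3.50% and 3.42% at 100 bases and 0.966% and 0.929% beside the midpoint, against 0.685% of the genome.

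**Figure D2:**
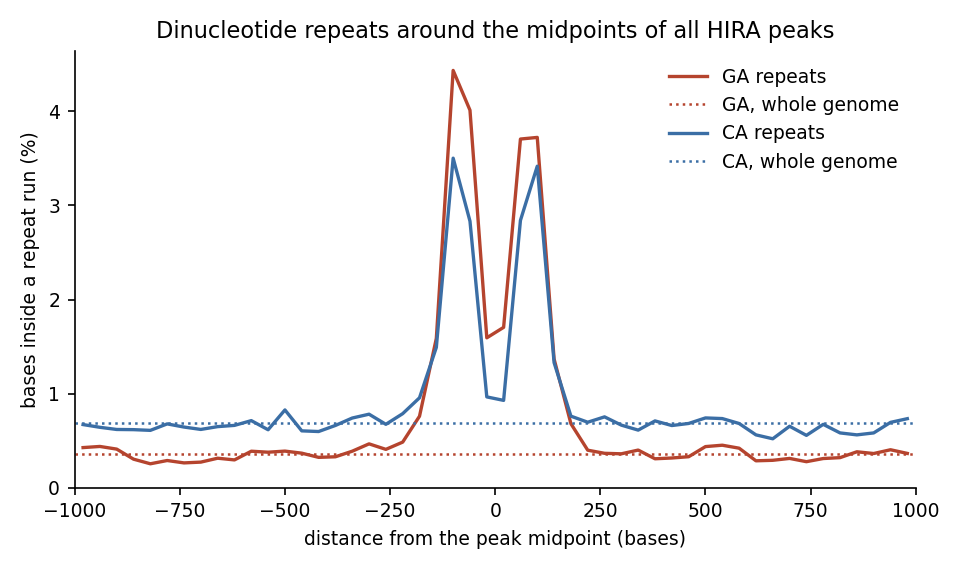
Percent of bases that lie inside a GA or CA run of 4 or more units (y axis) against the distance from the midpoint of the 6624 peaks in bases (x axis, bins of 40 bases), with the share of the whole genome as dotted lines. Both repeats rise on either side of the midpoint, GA to 4.44% and 3.72%, and dip between, with GA at 1.59 and 1.71%.

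The end of the peak that carried the repeat followed the strand of the repeat. Read 5′ to 3′ on the GA strand, the longest run was centred in the first part of the peak in 635 members and in the last in 280. Of these 915 runs, 69.4% were therefore on the 5′ side (interval 66.3 to 72.3%), where a place without regard to strand would give 50%. The share was 71.8% (67.6 to 75.6%) when the run was on the plus strand and 66.7% (62.2 to 71.02%) when it was on the minus strand. By units inside the peak, which its edge can cut short, the share was 57.6% (51.4 to 63.6%) for runs of 4 to 9 units. It was 72.0% (67.4 to 76.1%) for 10 to 19 units and 76.9% (71.3 to 81.6%) for 20 units or more.

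Of the 599 runs that passed an edge, 443 passed the 5′ edge (74.0%, interval 70.3 to 77.3%). Among the 317 outer runs that lay wholly inside the peak, 193 were on the 5′ side (60.9%, 55.4 to 66.1%). In the members without a CA run the share on the 5′ side was 73.6% (70.4 to 76.6%). The peak thus usually covered the sequence that follows the repeat on the GA strand. At 100 bases beyond the centre of the run on the 3′ side, 66.5% of the 1063 peaks still covered the sequence, and at 100 bases on the 5′ side 32.3% did.

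**Figure D3:**
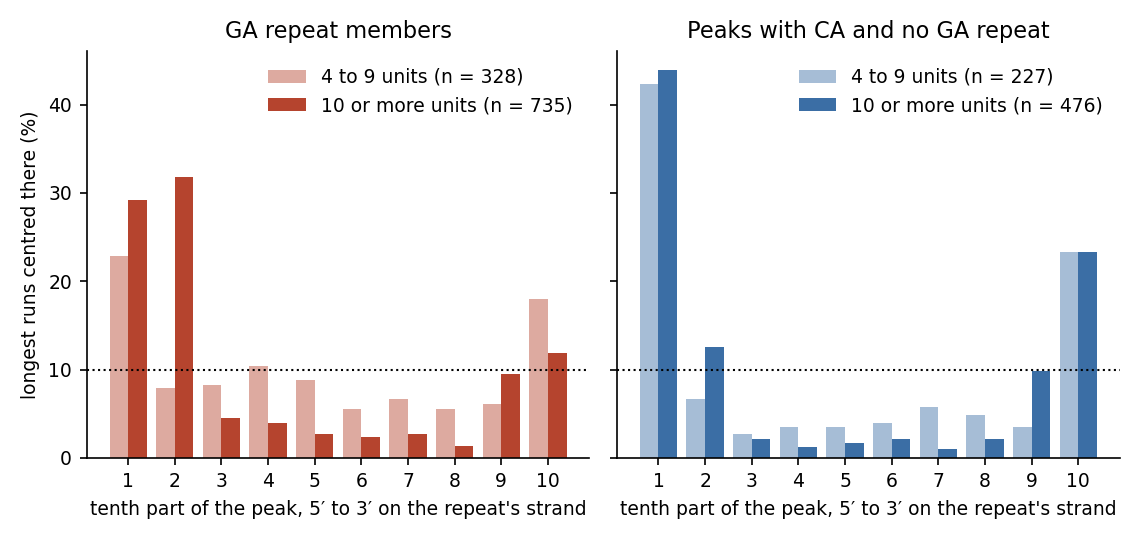
Position of the centre of the longest run along the peak, cut in 10 equal bins and read 5′ to 3′ on the strand of the repeat (x axis), as percent of runs (y axis), for the GA members on the left and the peaks with a CA and no GA repeat on the right. The dotted line is the 10% of an even spread, and in both panels the outermost bins are filled above it. GA runs with 10 units or more inside the peak fill the first 2 bins most (29.3% and 31.8%).

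**Figure D4:**
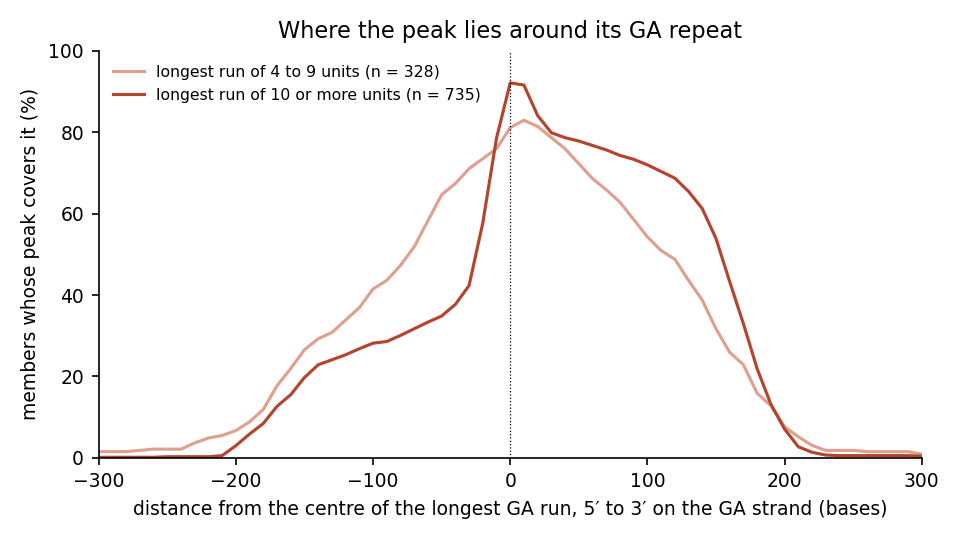
Percent of members whose peak covers a base (y axis) against the distance of that base from the centre of the longest GA run in bases, 5′ to 3′ on the GA strand (x axis), for runs with 4 to 9 units and with 10 units or more inside the peak. For the longer runs the curve falls steeply on the 5′ side, to 28.2% at 100 bases, and slowly on the 3′ side, to 72.0% at 100 bases.

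The 703 peaks that held a CA but no GA run shared this arrangement in part. Their longest run was in the middle part in 51 (7.25%, interval 5.56 to 9.41%), lower than in the GA members by 6.67 points (3.76 to 9.45). Their outer runs were on the 5′ side of the CA strand in 402 of 652 (61.7%, 57.9 to 65.3%). The GA members exceeded this by 7.74 points (2.98 to 12.51), and at equal run length by 5.94 points (0.866 to 11.02). The excess did not show in every kind of run. Among outer runs wholly inside the peak the difference at equal length was 1.63 points (-7.24 to 10.5). For runs with 4 to 9 units inside the peak the shares were 57.6% for GA and 59.8% (52.9 to 66.4%) for CA.

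With respect to genes, 539 members were intergenic (50.7%, interval 47.7 to 53.7%), 424 intronic (39.9%, 37.0 to 42.9%), 84 at promoters, taken as 1 kb to either side of a transcript start (7.90%, 6.43 to 9.68%), and 16 in other exonic sequence (1.51%, 0.929 to 2.43%). The shares were compared with the 5561 other peaks, and the intervals of these and 6 further differences were widened so that all 10 hold together at 95%. The intergenic share was lower by 4.70 points (interval of the difference -9.38 to -0.0215) and the intron share higher by 4.35 points (-0.156 to 8.99). The interval of the first ended close to 0 and reached it at a minimum of 6 units, on the autosomes alone and under 3 other settings. Promoter and exon shares differed by 0.439 points (-1.84 to 3.24) and -0.0953 points (-1.02 to 1.42).

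Against the GA runs of the genome that touched no peak, rather than against other peaks, the promoter class was the one that stood apart. Of the 1642 runs in peaks, 8.04% were within 1 kb of a transcript start, and of the 597656 runs outside 5.58%. At equal run length the difference was 2.77 points (interval 1.10 to 4.45, widened for 4 classes). Intronic runs differed by 0.398 points (-2.60 to 3.40) and intergenic runs by -2.87 points (-5.95 to 0.219). Several runs can lie in the same peak, so these runs are not all independent.

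**Figure D5:**
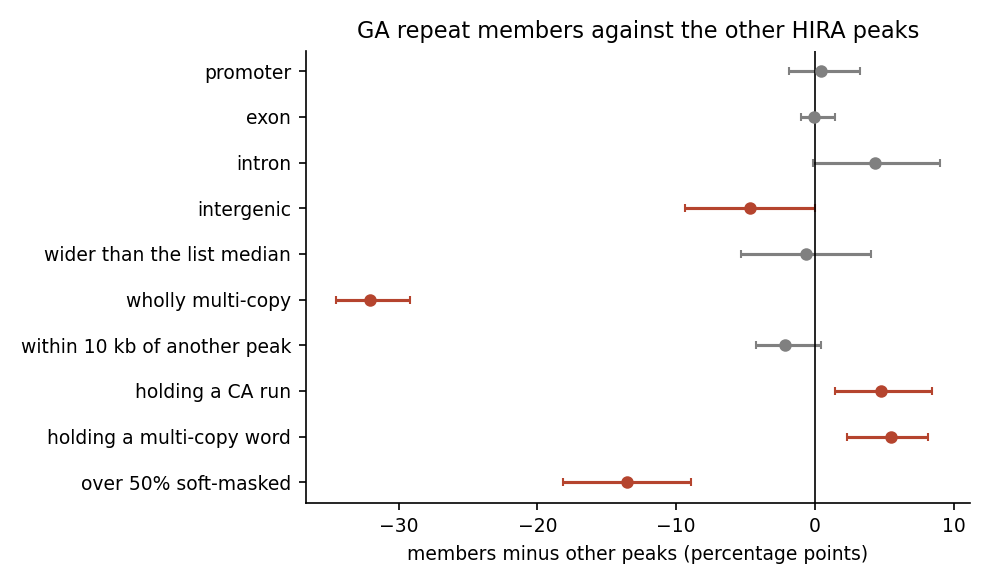
Difference in percentage points between GA repeat members and the other peaks (x axis) for 10 properties, with intervals that hold together at 95%. Filled red points have intervals without 0, and the share of wholly multi-copy peaks lies farthest from 0, at -32.1 points.

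The members were less repetitive as a whole than the other peaks, although each holds a repeat. All 32-base words were multi-copy, that is found more than once in the genome, in 56 members (5.27%) and in 2076 other peaks (37.3%), a difference of -32.1 points (interval -34.5 to -29.2). More than 50% of the bases were soft-masked in 53.2% of the members and 66.8% of the others (-13.5 points, -18.2 to -8.90). At least 1 multi-copy word was present in 90.0% of the members and 84.6% of the others (5.46 points, 2.29 to 8.15), a measure that the repeat itself contributes to.

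A CA run was also present in 185 members (17.4%) and in 703 others (12.6%), a difference of 4.76 points (interval 1.47 to 8.46). At a minimum of 12 units the interval of this difference included 0 (3.39 points, -0.483 to 8.00). No difference in width was detected, with medians of 184 and 185 bases and 48.3% against 48.9% above the median width of the list (-0.652 points, -5.32 to 4.04). Within the wider peaks alone, members were less often above the median of those peaks (-16.8 points, -23.0 to -10.2). A peak within 10 kb was found for 6.21% of the members and 8.36% of the others (-2.15 points, -4.24 to 0.457). At a minimum of 6 units the interval of that difference left out 0 (-3.02 points, -5.10 to -0.274). By chromosome the members made up between 13.3% of the peaks on chromosome 4 and 19.9% on chromosome 5 among the autosomes, 12.3% (9.39 to 15.8%) on X and 6 of 158 (3.797%, 1.75 to 8.04%) on Y.

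The strand of the repeat was compared with that of the gene around it. Of 481 members in genes of 1 strand only, 217 carried the longest GA run on the sense strand (45.1%, interval 40.7 to 49.6%). This lay below 50%, but the same share over all 253302 GA runs in such gene bodies was 48.1% (47.9 to 48.3%), which is inside the interval of the members. By length in the genome, the longest run was sense in 40.5% (32.2 to 49.4%) of the members with 4 to 9 units, 45.3% (36.6 to 54.3%) with 10 to 19 and 47.3% (41.1 to 53.6%) with 20 or more, against 48.1%, 47.5% and 48.7% of the runs outside peaks. Counted by run, 124 of the 314 runs of 4 to 9 units in peaks were sense (39.5%, 34.2 to 45.0%), against 48.1% (47.9 to 48.3%) outside. Several of these runs can lie in the same peak, and the interval treats them as independent. The interval by member for 4 to 9 units, 32.2 to 49.4%, includes 48.1%. At a minimum of 6 units the sense share of the members was 45.5% (40.7 to 50.5%). Members in genes on both strands (24) were left out.

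A start here is that of any transcript of a protein-coding gene, internal ones included. A peak upstream of a start can therefore lie inside the gene. The distance from a member to the nearest such start had a median of 40.4 kb (interval 34.6 to 45.4), and 324 members (30.5%, 27.8 to 33.3%) were more than 100 kb away. Within 5 kb lay 187 members (17.6%, 15.4 to 20.0%) and 14.5% of the other peaks (3.13 points, 0.765 to 5.70). This last difference was not held with the longer repeats, at 1.52 points (-0.962 to 4.27) for a minimum of 6 units, nor on the autosomes alone (1.72, -0.712 to 4.36). Of the 420 members in a protein-coding gene body, 331 were in an intron of its longest transcript, and 113 of these (34.1%, 29.2 to 39.4%) in the first.

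Members close to a start lay more often upstream of it than the other peaks did. Of the 187 within 5 kb, 117 were upstream (62.6%, interval 55.4 to 69.2%), against 49.6% (46.2 to 53.1%) of the 804 other peaks, a difference of 12.9 points (5.02 to 20.4). All GA runs outside peaks within 5 kb of a start were upstream in 52.4% (52.0 to 52.7%), 10.2 points below the members (3.03 to 16.8). Most of those runs were short, and at equal run length the difference was 7.14 points (0.161 to 14.1). Of the runs outside peaks with 10 units or more in the genome, 55.5% were upstream. Of the members with 10 units or more inside the peak, which its edge can cut short, 61.8% (53.0 to 69.9%) were. The run was on the sense strand of that gene in 87 of the 187 (46.5%, 39.5 to 53.7%).

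The 10 members nearest to a start were between 8 and 169 bases from it, with runs of 5 to 42 units. Besides Gng11, Gm49510 and Zfp607b they included members at Mdga1, a cell surface protein of neurons, Emilin2, a matrix glycoprotein, Pde3a, a phosphodiesterase of cardiac and vascular muscle, Lmo3, a LIM-only protein, Frmd4b, a FERM domain protein, and Epgn, a ligand of the EGF receptor. At 8 of the 10 the peak was upstream of the start, and at 7 the GA run was on the sense strand. Some of these starts lie within the gene. By its longest transcript the peak was in intron 6 at Emilin2 and Frmd4b, and in intron 2 at Lmo3. The Pde3a peak lay 111 bases upstream, with a run of 17 units that reached 30 in the genome. The other long runs, after Nalcn and Zfp710, were at Stau2 (54 units, 320 bases upstream of a start), at Zfp607b (42 units), and in an intergenic peak 368 kb from Vrk2 (41 units).

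Members rarely gathered in 1 gene. Of the protein-coding genes, 396 held 1 member in the body, 22 held 2 and 2 held 3. The latter were Gm20388, a gene model of 4435 kb, and Lrmda, of 1036 kb. The first 3 with 2 members, in genome order, were Tns1, Dnajc1 and Gipc2. A member lay in the body or within 5 kb of 532 of 21938 protein-coding genes (2.43%). This share depended on the length of the gene, from 0.630% (interval 0.477 to 0.832%) of those under 10 kb to 21.7% (18.5 to 25.3%) of those of 300 kb or more.

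Lists of genes of the heart, of Eph signalling and of H3.3 chaperones were read against that 2.43%. They include 8 genes that the study assayed or discussed. At Epha3 and Lsp1 among these the study had already described HIRA peaks from these same data, so both were known beforehand. Of 205 listed genes, 13 had a member (6.34%, interval 3.74 to 10.5%), and the median length of these 13 was 227 kb, so gene length moves with the count and its part was not tested. The members at these genes numbered 14, of which 11 were of the intron class, with the run on the sense strand in 7 and on the antisense strand in 7. The member at Ubn1 is among the 11, but it lies beyond the end of Ubn1, in an intron of another gene.

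Cardiac transcription factors had a member at 3 of 33 genes (9.09%, interval 3.14 to 23.6%). At Gata4, a zinc finger factor needed for heart development, the peak (chr14:63271347-63271518) lay 0.259 kb from a transcript start and held 8 units of a run of 19, with no multi-copy word. Zfpm2, whose product FOG2 is a cofactor of GATA4, had 2 members in intron 5, with 21 and 15 units. Tead1, a factor of the Hippo pathway, had a peak of 313 bases in intron 1 with 5 units. All 4 runs were antisense to their gene.

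Ion channel and calcium handling genes had a member at 3 of 38 (7.89%, 2.72 to 20.8%). Cacna1c, the pore of the L-type calcium channel, had 4 runs of up to 6 units in intron 3. Cacnb2, which encodes a subunit of that channel, had 10 GA units beside a CA run of 20 units. Kcnq1, a potassium channel gene, had 9 units in intron 15.

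Eph receptors and ephrins, ligands and receptors of contact signalling, had a member at 3 of 22 genes (13.6%, 4.75 to 33.3%). In Epha3 2 peaks lay in the body, 1 of them a member, 219 kb from the start, with 25 units on the sense strand. Epha4 had 11 units of a run of 27 in intron 8 of its longest transcript. This sequence is also exon of another transcript, of Epha4 or of another gene. Epha6 had 20 units in intron 2. In the sarcomere and Z-disc list 1 of 39 genes had a member (2.56%, 0.454 to 13.2%), which was Synpo2, with 15 units in intron 1.

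For cushion and valve formation the count was 1 of 31 (3.23%, 0.572 to 16.2%), at Tgfb2, a growth factor of the cushions, with the minimum of 4 units in intron 1. For H3.3 chaperones and their partners it was 1 of the 16 found in the annotation (6.25%, 1.11 to 28.3%), at Ubn1, a partner of HIRA, 4047 bases beyond the end of the gene, with 11 units. Genes of endothelium, epicardium and blood, the other cells of the heart, had 0 of 22, which allows a share of up to 13.6% when 3 genes are taken as the limit, or 14.9% by the Wilson interval. Of the 8 genes that the study assayed or discussed, 2 had a member in the body or within 5 kb, Epha3 and Lsp1. The study described HIRA peaks at both from these same data, so this count is not independent of it.

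The member upstream of Lsp1, an actin-binding protein of leukocytes, was the nearest to the troponin genes, 15.1 kb from Tnni2 and 39.3 kb from Tnnt3. Between these genes and close to Lsp1 the paper describes a HIRA-bound region with a GAGA motif. It calls this the TTe site and treats it as an enhancer of Tnni2 and Tnnt3. Both troponin genes were upregulated in the mutant hearts, and Lsp1 showed no change. By quantitative ChIP the paper also found HIRA enriched at the site. At 662 bases the member was wider than the upper quartile of the members (202 bases), and its run of 5 units lay 224 bases from the nearer edge. None of its words was multi-copy, and 4.08% of its bases were soft-masked, against medians of 18.5% and 51.8% over the members. Its centre lay 1.29 kb upstream of the start of Lsp1, and the run was on the sense strand.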

How the data were processed

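The deposited list is a BED file with chromosome, start and end of each peak, of the unit other (positions), made by the authors from 1 HIRA ChIP library against its input. According to the methods of the study, reads were aligned to mm10 with Bowtie2, duplicate and poor quality reads were removed, and peaks were called with MACS in Strand NGS. Per the file headers the p-value cutoff was 0.001, and the cutoff in the methods is stricter. The fragment length was 200 and the enrichment limits were 5 and 50. The treatment of reads that align to several places is not given in the sources used here, and it can change which repeats enter the list.

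GA and CA runs were read from the GRCm38.p6 sequence with Python 3.11.15 and numpy 2.4.6. CA runs were found on both strands like GA runs, and a peak can hold both. The midpoint of the peak decided its class (promoter first, then exon, intron and intergenic), from GENCODE M21 (55413 genes). Shares carry Wilson and differences Newcombe intervals, and a difference was called where its interval left out 0. Run finding and intervals were tested on simulated data. Genes were named by fixed rules: those of the lists, the longest runs, the genes with most members, the nearest starts, and the surroundings of Tnni2, Tnnt3 and Epha3. Of the genes and sequences these rules give, 1 each is not reported here. The members and lists were chosen with earlier results of these data known. The orientation of the runs, the distance to and side of the start, the soft-masked share, the share with a multi-copy word and the share with every place of a run counted equally were added after seeing the data.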

Additional observations from a re-analysis of the deposited data

How the results depend on the processing

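No paired analysis was possible because the study has a single ChIP library. Of 112 alternative values of 19 results, 78 kept direction and call, or size for a plain count. A change of sign occurred in 7, all with intervals that included 0 before and after. These were the promoter difference on autosomes (-0.0113 points) and with protein-coding genes only (-0.268), the exon difference in wider peaks (0.574), with promoters of 3 kb (0.140) and with RefSeq genes (0.146), and the width difference at 12 units (0.478) and with peaks merged (0.0839). The members numbered 656 at a minimum of 12 units, 513 in wider peaks, 2364 with 1 mismatch allowed and 33 with a match in sequence that was not soft-masked. The lower intergenic share of the members lost its call at a minimum of 6 units (-3.90 points), of 12 units (-3.98), in wider peaks (-4.48), on autosomes (-3.13) and with protein-coding genes only (-3.43), and the higher intron share was called with peaks merged (4.66) and with RefSeq genes (4.79). The lower share within 10 kb of another peak was called at 6 units (-3.02), at 12 units (-3.48), in wider peaks (-4.09) and on autosomes (-3.01). In wider peaks the members were less often above the median width of those peaks (-16.8 points), and the excess of multi-copy words was not called (2.60 points). The excess of CA runs was not called at 12 units (3.39 points), nor was the excess within 5 kb of a start at 6 units (1.52), at 12 units (2.01) or on autosomes (1.72). The sense share was no longer below 50% beyond its interval at 6 units (45.5%), at 12 units (46.3%) and in wider peaks (44.0%). The share of genomic GA runs in a peak was 0.288% on autosomes, 0.139% for wider peaks and 0.325% for soft-masked runs. Settings with fewer members or peaks have wider intervals by construction, and otherwise the cause was not tested. The excess of GA over CA runs in peaks kept its call under the 4 other settings, and the share on the 5′ side under 9. The share in the middle part stayed below 33.3% beyond its interval under 7, but not for runs of 4 to 9 units in the genome (31.2%, 25.8 to 37.2%). The list has no depth or score, so a stricter threshold could not be set.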
